A study of Macaca fascicularis and Mus musculus with 492 samples.

Results

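The immediate early genes EGR1, FOS, JUN, JUNB, IER2 and DUSP1, were followed through single cells of cynomolgus monkey and mouse embryos and of their pluripotent cultures. The members were taken by gene symbol, which gave 6 rows of the 28797 genes used in the monkey table and 6 rows of the 26219 in the mouse table (12 of 55016 in all). The monkey gene IDs are 102128326 for EGR1, 102143716 for FOS, 102126446 for JUN, 102145757 for JUNB, 102128131 for IER2 and 102116284 for DUSP1. RNA was measured by SC3-seq, a single-cell method that reads transcripts at their 3′ ends, and values are in RPM, reads scaled to a fixed total per cell. Monkey ESCs were of the line CMK6 on mouse feeder cells (14 cells), CMK6 grown feeder-free (9 cells) and the line CMK9 on feeders (8 cells). Monkey embryos gave 43 cells on embryonic day 6 (E06), 35 on E07, 95 on E08, 20 on E09, 46 on E13, 62 on E14, 36 on E16 and 53 on E17. Mouse cells were 12 epiblast-like cells (EpiLCs), made from 2i/LIF ESCs of the line BVSC R8 with activin A and bFGF, 10 ESCs kept in 2i and LIF, and 25 and 24 embryo cells of C57BL/6 mice at E5.5 and E6.5. The 2i medium holds inhibitors of MEK and GSK3. Each ESC or EpiLC group was 1 culture, the monkey postimplantation cells came from a dissected fragment of epiblast, amnion, hypoblast and yolk sac endoderm, and the epiblast cells of mouse E6.5 came from its proximal part.

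Immediate early genes are transcribed within minutes of a signal, without new protein synthesis. In pluripotent cells FGF acts through RAS, RAF, MEK and ERK, which phosphorylates ELK1 and other factors that sit with SRF at the promoters of EGR1 and FOS. EGR1 is a zinc-finger transcription factor, FOS, JUN and JUNB form the dimeric factor AP-1, IER2 is a short nuclear protein induced by growth factors, and DUSP1 is a phosphatase that removes the activating phosphates from MAP kinases. The same genes are known to be induced when tissue is taken apart with proteases, so a high level in a dissociated cell can have either origin.

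AU-rich elements, built from the pentamer ATTTA, mark short-lived mRNAs, and windows of 30 bases with the pentamers in capitals are shown for 4 mouse members with at least 1 pentamer (GENCODE M21 transcripts, mm10, 5′ to 3′ on the strand of the gene):
Fos: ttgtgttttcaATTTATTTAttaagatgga
Jun: atcATTTAtaatcataggaaagATTTAgta
Junb: aatatatttgtgtATTTAacagggagggga
Dusp1: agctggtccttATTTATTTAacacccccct

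The Fos window lies in the 3′ UTR at chr12:85477100-85477129 on the + strand, and the Jun window in that of Jun at chr4:95049207-95049236 on the - strand. The Junb window lies at chr8:84977127-84977156 and the Dusp1 window at chr17:26506157-26506186, both in 3′ UTRs on the - strand. Counted on the transcript strand with overlaps allowed, the whole 3′ UTR held 4 pentamers in Fos (815 bases), 4 in Jun (1233 bases), 4 in Dusp1 (690 bases), 2 in Junb (485 bases), 2 in Egr1 (1216 bases) and 0 in Ier2 (755 bases). As many pentamers were found in 12.7% of the 2793 mouse 3′ UTRs of like length for Fos, in 9.72% of 2624 for Dusp1, in 27.3% for Jun, in 23.2% for Junb and in 57.9% for Egr1. The longer element TTATTTATT, present in 7.005% of all 21000 UTRs, occurred 2 times in Dusp1, 1 time in Fos and in no other member. These matches describe the mouse transcripts, and neither mRNA lifetimes nor the monkey UTRs were measured here.

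Monkey cells had 166742 to 4491539 reads (median 1879342), mouse cells 1004103 to 4158784 (median 2642943), and E17 had the lowest median of any group, 912193. Within a class and day, the correlation of a member with log2 reads per cell lay between -0.10 and 0.10 in both species. Classes were rebuilt by clustering without the members, and were called after markers: epiblast-like, hypoblast-like and trophectoderm-like cells of E06 to E09, and epiblast-like, gastrulating-like (T and EOMES among the leading genes) and extraembryonic-mesenchyme-like (EXM-like; collagens and VIM) cells of E13 to E17. Of the 2 gastrulating-like clusters, the first also had 6 of 10 hypoblast markers raised and the other had 4 of 8 epiblast markers, and 32 cells, 31 of them of E06, stayed unnamed. No label says which cells share an embryo, and the unit compared was therefore the mean of log2(RPM + 1) over the cells of 1 class on 1 day, or of 1 culture, with at least 5 cells. Embryo cells were freed with 0.25% trypsin for about 10 min at 37 °C, postimplantation fragments after dissection from the uterus. Monkey ESCs on feeders were lifted as clumps and then trypsinized, while feeder-free ESCs and the mouse cultures were freed in TrypLE for about 5 min. Handling therefore followed stage and culture, and an effect of handling cannot be told apart from an effect of either.

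EXM-like cells, from outside the embryo proper, held the highest median levels of FOS, JUN and JUNB among the monkey classes and cultures. On E13, FOS ranged from 158 to 2023 RPM over 16 EXM-like cells (median 678) and from 0 to 6.97 RPM over 24 epiblast-like cells (median 0). On E14, FOS ranged from 21.8 to 1807 RPM over 14 EXM-like cells (median 407) and from 0 to 34.6 RPM over 25 epiblast-like cells (median 0). On E13 the lowest EXM-like cell thus stood above the highest epiblast-like cell, and on E14 the ranges overlapped only at their ends. EGR1 was at 28.1 to 901 RPM in EXM-like cells of E13 (median 243) and at 0 to 286 RPM in epiblast-like cells (median 2.06). JUN was at 10.6 to 262 RPM in EXM-like cells of E13 (median 40.9) and at 0 to 19.1 RPM in epiblast-like cells (median 0). JUNB, at 14.3 to 239.8 RPM (median 46.97), against 0 to 15.01 RPM in epiblast-like cells (median 0), showed the same order, with only the edges of the ranges meeting. IER2 overlapped widely, at 44.96 to 538 RPM in EXM-like cells (median 120.2) and 1.54 to 169 RPM in epiblast-like cells (median 69.9). DUSP1 was at 0 to 177 RPM in EXM-like cells (median 32.8) and 0 to 57.3 RPM in epiblast-like cells (median 3.78). On E14, EGR1 was at 0 to 201 RPM in EXM-like cells (median 52.2) and 0 to 430.3 RPM in epiblast-like cells (median 9.40). JUN was at 0 to 285 RPM (median 28.9) and 0 to 36.6 RPM (median 0) in these classes on E14. For JUNB the values were 0 to 209 RPM (median 32.6) and 0 to 12.6 RPM (median 0). EXM-like cells of E14 thus reached down to 0 for EGR1, JUN and JUNB. On E16, 2 further EXM-like cells, too few for a unit, had FOS at 241 and 384 RPM and EGR1 at 52.2 and 101 RPM, and DUSP1 at 0 in both.

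**Figure D1:**
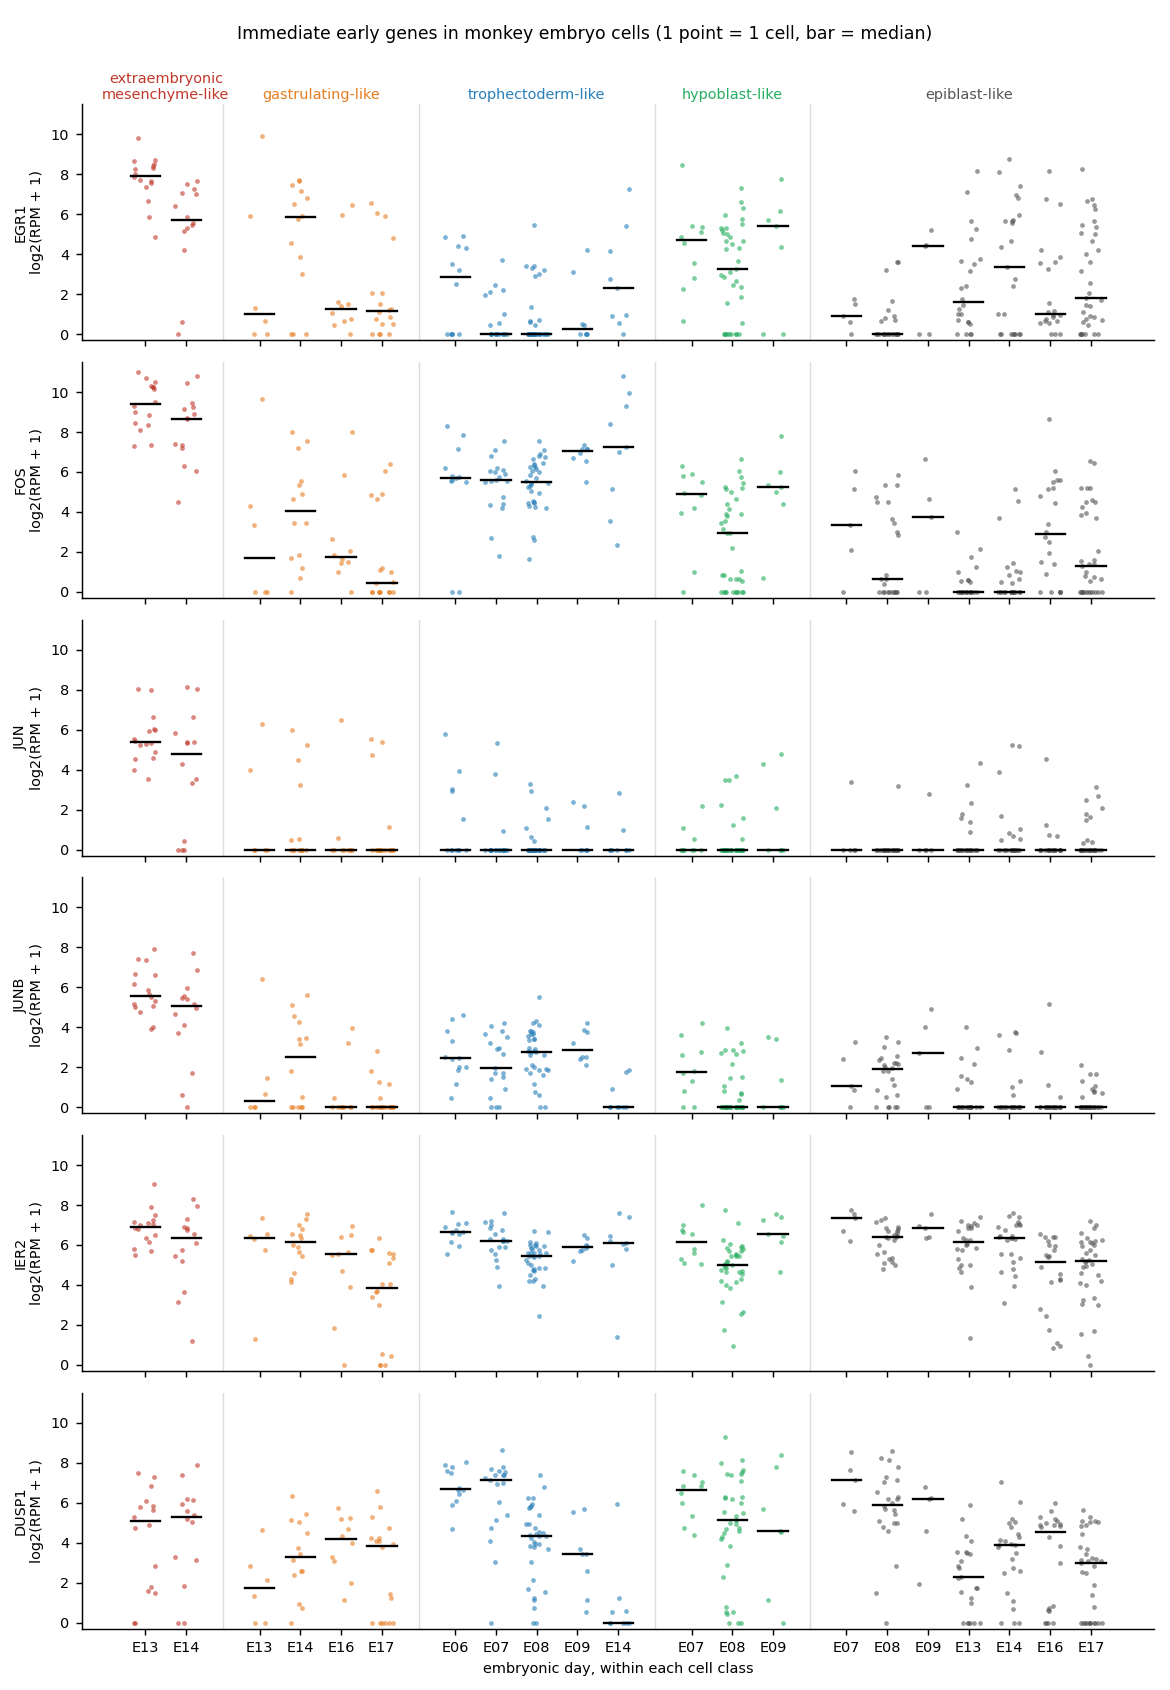
Level of each member as log2(RPM + 1) (vertical) in monkey embryo cells, by class and embryonic day (horizontal), for classes with at least 5 cells on a day; points are cells and bars are medians. The medians of EXM-like cells of E13 and E14 are the highest for FOS, JUN and JUNB. On E14 the lowest EXM-like cells are at 0 for JUN and JUNB. IER2 stays high in nearly every group. In epiblast-like cells the median of DUSP1 is lower on each day from E13 to E17 than on each day from E07 to E09.

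With embryonic day as a block, limma called 4 of the 5 tested members higher in EXM-like than in epiblast-like cells, and 0 lower. In this comparison it called 32.9% of the 10213 genes tested, 12.9% higher and 20% lower. FOS averaged 8.75 ± 0.84 in EXM-like cells and 1.61 ± 1.20 in epiblast-like cells on the log2 scale (SD over 2 and 4 days), a day-adjusted difference of 7.30 ± 0.82 (SE; limma, Benjamini-Hochberg adjusted p = 7.42e-05). JUNB averaged 5.10 ± 0.96 in EXM-like cells and 0.53 ± 0.18 in epiblast-like cells, a difference of 4.18 ± 0.54 (limma, adjusted p = 0.000191). It passed the filter on low values, a unit mean of at least 2 in 3 units, only through EXM-like E13 and E14 and gastrulating-like E14 (2.28). Its entry into the test, and so its place in the count of called members, thus depended on the EXM-like cells. EGR1 differed by 3.26 ± 0.80 (limma, adjusted p = 0.00962) and DUSP1 by 1.75 ± 0.48 (limma, adjusted p = 0.0161). IER2 differed by 0.26 ± 0.44 (limma, adjusted p = 0.687). JUN was under the filter on low values and had no test, with unit means of 4.79 ± 1.08 in EXM-like and 0.56 ± 0.20 in epiblast-like cells. The EXM-like side rested on 2 days. Without its E13 cells only E14 was left on that side, and EGR1 then differed by 1.36 and DUSP1 by 1.26. JUNB fell under the filter there and was not tested. Without the epiblast-like cells of E13, EGR1 differed by 2.60 (limma, adjusted p = 0.0580). In edgeR's quasi-likelihood test on recovered reads only DUSP1 was called, with FOS at 5.79 (adjusted p = 0.0688), JUNB at 4.24 (adjusted p = 0.0533) and EGR1 at 0.54 (adjusted p = 0.810).

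The only batch-like label is a code in the sample titles, which the sources do not explain. Codes MS10 and MS61 each held 4 EXM-like cells of E13, beside 13 and 10 epiblast-like cells. Within MS10, FOS was at 275 to 621 RPM in the EXM-like cells (median 492) and at 0 in all 13 epiblast-like cells. Within MS61, FOS was at 165 to 2023 RPM in the EXM-like cells (median 754) and at 0 to 6.97 RPM in the epiblast-like cells (median 0.517). The separation of FOS was thus also present between cells that share day and code. For EGR1 the EXM-like cells of MS10 were at 56.5 to 405 RPM (median 259) and the epiblast-like cells at 0 to 286 RPM (median 2.39), and in MS61 they were at 187 to 901 RPM (median 309) and 0 to 37.1 RPM (median 0.832). On E14 no code held both classes. The 12 EXM-like cells of E14 with code MS09 can be set beside 7 trophectoderm-like cells of that day and code, with a median FOS of 407 RPM in EXM-like and 343 RPM in trophectoderm-like cells. JUNB had a median of 27.4 RPM in those EXM-like cells and 0 in the trophectoderm-like cells, and DUSP1 a median of 33.8 RPM in EXM-like and 0 in trophectoderm-like cells. The trophectoderm-like cluster of E14 and E16 had 8 of 10 trophectoderm markers raised and also 5 of 9 EXM markers, which summed to 54.7 to 281 RPM in its 9 cells of E14. High FOS was thus shared by both extraembryonic classes of that code, and JUNB and DUSP1 were not raised with it in the trophectoderm-like cells.

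**Figure D2:**
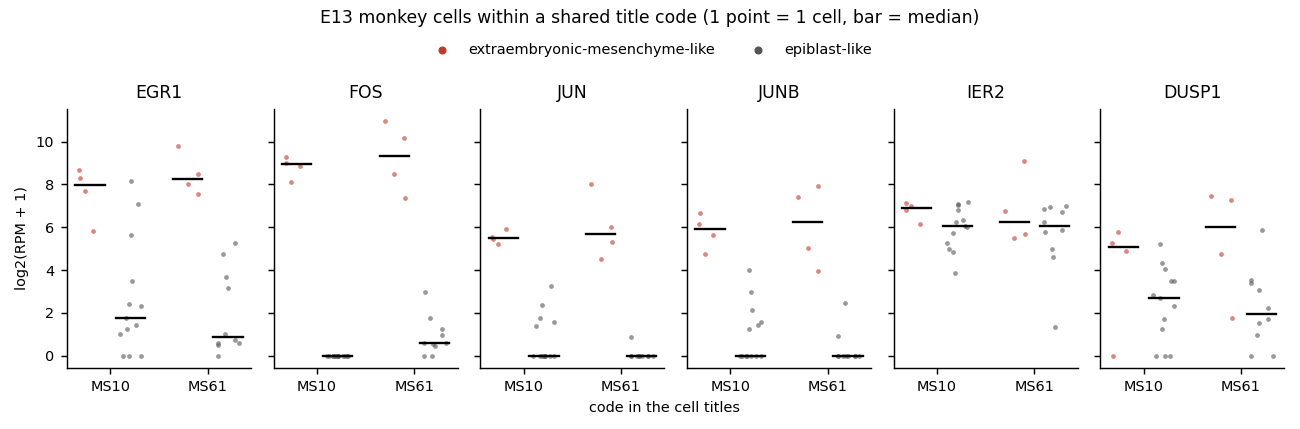
Level of the members as log2(RPM + 1) (vertical) in EXM-like and epiblast-like cells of E13, shown apart for title codes MS10 and MS61; points are cells and bars are medians. In both codes all 4 EXM-like cells lie above every epiblast-like cell for FOS.

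Markers of other cells moved with this result. The 9 EXM markers summed to 6987 to 16403 RPM in EXM-like cells of E13 and 13218 to 54299 RPM on E14, against 23.9 to 823 RPM and 52.1 to 950.5 RPM in epiblast-like cells of those days. The fibroblast and uterine stroma list summed to 409.7 to 3413 RPM and 1446 to 7668 RPM in EXM-like cells, against 34.8 to 218 RPM and 1.01 to 292 RPM in epiblast-like cells, with its members DES and PGR at a median of 0 in EXM-like cells. The blood and immune list (7 of 8 genes in the table) summed to 0.575 to 66.4 RPM and 0 to 60.8 RPM in EXM-like cells and at most 11.3 RPM in epiblast-like cells, with PTPRC, HBB and LYZ at a median of 0. EXM-like cells also had hypoblast and endoderm markers summing to 1526 to 2596 RPM on E13. Their part in the result was not tested.

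Other genes of the response followed in part. Of 20 other immediate early genes tested, 10 rose and 1 fell in EXM-like cells, with a median difference of 0.96 against -0.21 over all genes. FOSL2, a further AP-1 subunit, rose by 6.99 ± 0.45 (limma, adjusted p = 2.10e-06) and RHOB, a small GTPase, by 4.82 ± 0.57 (limma, adjusted p = 0.000101), while BTG1 fell by 2.19. Of 16 ERK targets and feedback genes, 3 rose and 4 fell, with PHLDA1 at 2.996, SPRED2 at 2.12, ETV4 at -7.52 and ETV1 at -5.17. ETV4 and ETV1 are ETS factors that follow FGF signalling, and they were thus low where FOS was high. Of 20 genes of the pathway itself, 6 rose and 3 fell, with the kinase RPS6KA3 at 2.98 and ELK1 at 2.04, and with the ligands FGF2 at -6.02 and FGF4 at -3.92. Of 19 genes of heat shock and dissociation stress, 7 rose and 4 fell: ATF3, which is also on the immediate early list, rose by 4.35 and SOCS3, an inhibitor of cytokine signalling, by 4.16, while the chaperones HSPD1 (-0.64) and HSPE1 (-0.57) fell.

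On E07 to E09 the classes differed in which member they carried. FOS was higher in trophectoderm-like and EGR1 in hypoblast-like cells, and IER2 was lower in both, than in epiblast-like cells, and DUSP1 was lower in trophectoderm-like cells. FOS in trophectoderm-like cells was at 2.41 to 184 RPM on E07 (median 46.9), 2.08 to 189.5 RPM on E08 (median 44.96) and 43.6 to 159 RPM on E09 (median 132). In epiblast-like cells FOS was at 0 to 65.1 RPM on E07 (median 9.18), 0 to 56.7 RPM on E08 (median 0.577) and 0 to 101 RPM on E09 (median 12.4). Single cells of the classes overlapped, but the median was higher in trophectoderm-like cells on each day. On E06, trophectoderm-like cells were at 0 to 313 RPM (median 51.02), and on E14 a later set of 9 reached 4.04 to 1763 RPM (median 149).

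Of the 5 members tested between trophectoderm-like and epiblast-like cells of E07 to E09, limma called 1 higher and 2 lower, where it called 30.5% of 10101 genes, 13.6% higher and 16.9% lower. FOS averaged 5.85 ± 0.83 in trophectoderm-like and 2.75 ± 0.75 in epiblast-like cells (SD over 3 days each), a difference of 3.10 ± 0.41 (limma, adjusted p = 0.000293). DUSP1 averaged 4.48 ± 1.54 in trophectoderm-like and 5.93 ± 0.93 in epiblast-like cells, a difference of -1.45 ± 0.29 (limma, adjusted p = 0.00335), and edgeR put it at -1.25 (adjusted p = 0.0880). IER2 averaged 5.79 ± 0.46 in trophectoderm-like and 6.70 ± 0.47 in epiblast-like cells, a difference of -0.91 ± 0.24 (limma, adjusted p = 0.0144), which missed the threshold without the trophectoderm-like cells of E09 (limma, adjusted p = 0.0806) or the epiblast-like cells of E08 (limma, adjusted p = 0.0830). EGR1, at -0.61 ± 0.45, and JUNB, at 0.81 ± 0.40, did not pass. The FOS difference was 3.65 within code MS02 on E08 and 3.80 within code MS03 on E09.

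Between hypoblast-like and epiblast-like cells of the same days, 1 of 5 members was called higher and 1 lower, where limma called 33.4% of the genes, 15.3% higher and 18.1% lower. EGR1 in hypoblast-like cells was at 0.560 to 358 RPM on E07 (median 25.1), 0 to 156 RPM on E08 (median 8.50) and 0 to 219.8 RPM on E09 (median 41.2). In epiblast-like cells EGR1 was at 0 to 2.42 RPM on E07 (median 0.865), 0 to 11.2 RPM on E08 (median 0) and 0 to 36.7 RPM on E09 (median 20.5). Hypoblast-like cells therefore had the higher median and the higher maximum on each day, and the classes were closest on E09. EGR1 averaged 3.90 ± 0.62 in hypoblast-like and 1.49 ± 1.17 in epiblast-like cells, a difference of 2.41 ± 0.45 (limma, adjusted p = 0.00229), and within codes it differed by 2.64 in MS02 on E08 and 1.38 in MS03 on E09. IER2 differed by -0.84 ± 0.24 (limma, adjusted p = 0.0198). That call was lost without the hypoblast-like cells of E07 (limma, adjusted p = 0.0713) or E08 (0.117), without the epiblast-like cells of E07 (0.0566) or E08 (0.103), and with edgeR (0.0544). FOS, at 1.14 ± 0.41 (limma, adjusted p = 0.0557), and DUSP1, at -0.74 ± 0.29 (0.0707), lay just outside the threshold. FOS passed it without the hypoblast-like cells of E08 (1.501, limma, adjusted p = 0.0381) or the epiblast-like cells of E07 (1.46, 0.0331), and FOS (0.0306) and DUSP1 (0.0404) passed without the trophectoderm-like cells of E07, which share the fit.

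**Figure D3:**
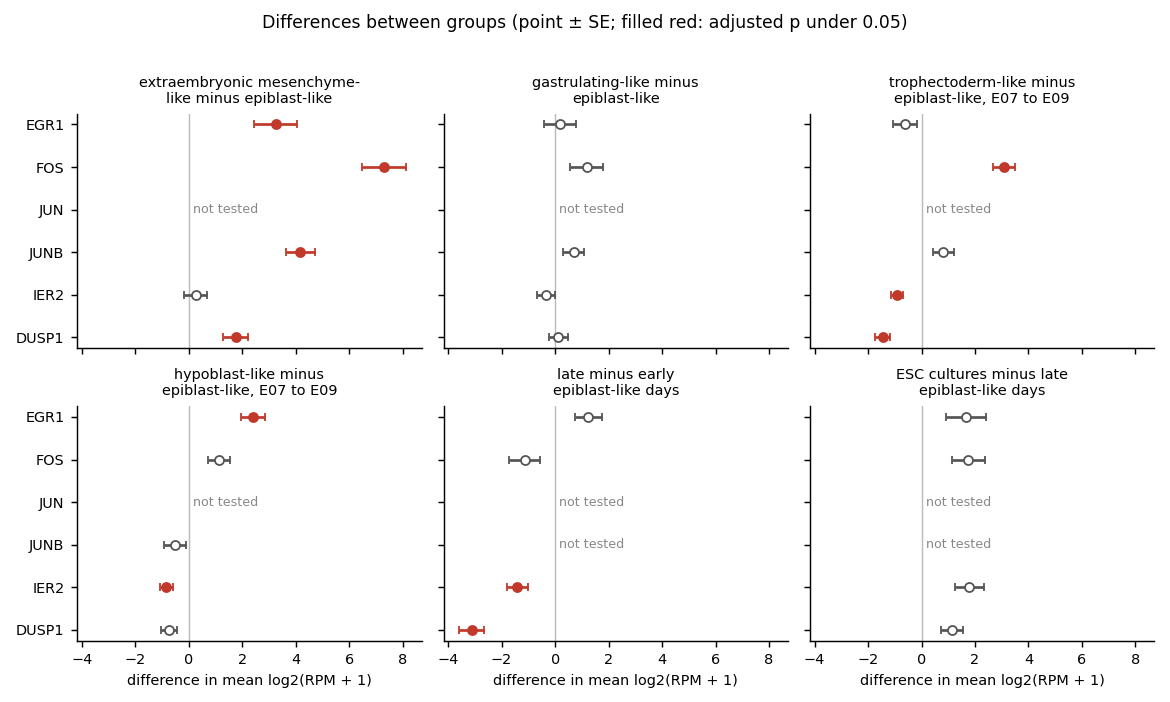
Difference of each tested member on the log2(RPM + 1) scale (horizontal) in the 6 monkey comparisons (panels), first-named class minus second; points are estimates and bars are SEs, with called members filled. FOS stands far to the right for EXM-like cells and right for trophectoderm-like cells, EGR1 right for hypoblast-like cells, and DUSP1 left for late epiblast-like days.

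Several feedback genes differed between these classes by more than any member. Of 19 other immediate early genes tested, 4 rose and 5 fell in trophectoderm-like cells, and 4 rose and 6 fell in hypoblast-like cells, with RHOB at 4.00 and 4.69 and FOSL2 at 3.23 and 4.11 in these classes relative to epiblast-like cells. MYC fell by 3.97 in hypoblast-like cells and CYR61, a secreted matrix protein, by 3.62 in trophectoderm-like and 3.89 in hypoblast-like cells. Of 15 ERK targets, 1 rose and 8 fell in trophectoderm-like cells (DUSP6 4.92, ETV4 -5.63, ETV1 -5.14), and 3 rose and 5 fell in hypoblast-like cells (DUSP6 4.36, SPRY1 2.25, ETV1 -4.79, ETV4 -3.51). DUSP6, the cytoplasmic phosphatase of ERK, thus rose in both extraembryonic classes, opposite to the ETS factors. Of 19 pathway genes, 3 rose and 4 fell in trophectoderm-like cells and 6 rose and 3 fell in hypoblast-like cells, and FGF4, the ligand made by the epiblast, was lower by 5.48 and 5.42. Of 20 stress genes, 6 rose and 4 fell in trophectoderm-like cells and 4 rose and 3 fell in hypoblast-like cells. CEBPD was at 2.18 and 3.04 and CEBPB at 2.17 and 1.67 in these classes. Among the falls were HSPB1 at -3.75 in trophectoderm-like cells and HSPE1 at -1.06 in hypoblast-like cells. These 2 comparisons share their epiblast-like cells.

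Up to E09, mean DUSP1 on the log2 scale was lower on each later day in trophectoderm-like, hypoblast-like and epiblast-like cells. Its mean in trophectoderm-like cells was 6.82 on E06, 6.21 on E07, 3.98 on E08, 3.25 on E09 and 0.92 on E14, where 5 of 9 cells were at 0. The 2 trophectoderm-like cells of E16, too few for a unit, averaged 3.32. In hypoblast-like cells it was 6.25, 4.75 and 4.58 on E07, E08 and E09, and in the unnamed cells of E06 it was 7.19. In epiblast-like cells it was 6.96, 5.69 and 5.14 on E07, E08 and E09, and then 2.24, 3.32, 3.20 and 2.48 on E13, E14, E16 and E17. Within code MS03 alone, DUSP1 in trophectoderm-like cells had a median of 96.8 RPM on E06 (9 cells), 157 RPM on E07 (16 cells) and 9.96 RPM on E09 (8 cells). The low level of E09 was thus present with the code held fixed, while E08 came almost wholly from code MS02. In gastrulating-like cells the order ran the other way from E13 to E16, with means of 1.82, 3.28 and 3.86, and then 2.74 on E17, and EXM-like cells had means of 4.22 on E13 and 4.50 on E14. No trend over days was fitted.

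Late (E13 to E17) against early (E07 to E09) epiblast-like days gave 0 higher and 2 lower of the 4 members tested, where limma called 37.5% of 9897 genes, 13.3% higher and 24.2% lower. DUSP1 in epiblast-like cells reached at most 57.3, 128, 62.1 and 48.4 RPM on the 4 late days, against 373, 379 and 109.8 RPM on the 3 early days. DUSP1 averaged 2.81 ± 0.53 on late days and 5.93 ± 0.93 on early days, a difference of -3.12 ± 0.46 (limma, adjusted p = 0.000292), and the day means did not overlap. IER2 averaged 5.29 ± 0.79 on late and 6.70 ± 0.47 on early days, a difference of -1.41 ± 0.39 (limma, adjusted p = 0.0139). The IER2 call was lost without E07 (limma, adjusted p = 0.0635), without E09 (0.0529) and with edgeR (-0.84, adjusted p = 0.0806). EGR1 differed by 1.24 ± 0.52 (limma, adjusted p = 0.0750), but by 1.91 without E09 (0.00916), and by 2.86 with the log of the mean RPM (0.00573), which weights the high cells. FOS differed by -1.15 ± 0.59 (limma, adjusted p = 0.147), and by -1.65 without E16 (0.0255). JUNB, untested, had unit means of 0.53 ± 0.18 on late and 1.81 ± 0.45 on early days. Within code MS08, which held epiblast-like cells of both stages, DUSP1 was at 0 to 64.5 RPM in 9 cells of E14 and 0 to 62.1 RPM in 16 cells of E16, against 139 and 197 RPM in 2 cells of E07. In the same code IER2 was at 7.54 to 172 RPM on E14 and 0.7998 to 84.2 RPM on E16, against 71.3 and 161 RPM on E07. For DUSP1 the stages did not overlap with the code held fixed, and for IER2 they did. The median reads per cell over all classes were 2031112 on E14, against 1895250 to 2049967 on E07 to E09, and were lower on the other late days. Dissection from the uterus applied to every late day and cannot be told apart from stage.

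Of 16 other immediate early genes, 1 rose (ID1, 1.90) and 8 fell on late epiblast-like days, led by KLF10 (-2.99) and BTG2 (-2.76), with a list median of -0.73 against -0.26 over all genes. Of 15 ERK targets, 4 rose and 5 fell, with CCND1, cyclin D1, at 4.36, SPRY1 at 1.90, DUSP5 at -4.14 and SPRED2 at -2.54. Of 20 pathway genes, 2 rose and 5 fell: the ligand FGF2 rose by 3.76 and the receptor FGFR2 by 1.87, and FGFR3 (-5.07) and FGF4 (-2.51) fell. Of 16 stress genes, 1 rose (the small heat shock protein HSPB1, 1.96) and 6 fell, including DNAJB1 (-1.71) and HSPE1 (-1.66).

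EGR1 was spread unevenly over late epiblast-like cells, of which 41 of 106 had it at 10 RPM or more. Its median was 2.06, 9.40, 1.03 and 2.47 RPM on E13, E14, E16 and E17, and its highest cell stood at 286, 430.3, 282 and 305 RPM. On E16, 1 of 22 cells held 51.2% of the summed EGR1, on E13 2 of 24 cells held at least 50% of it, and on E14 3 of 25, whereas for IER2 8 of 25 cells were needed on E14. Cells near 0 thus stood beside cells as high as EXM-like cells. Codes differed as well: on E14 EGR1 was at 1.02 to 273 RPM in 12 epiblast-like cells of code MS61 (median 50.4) and at 0 in most of 9 cells of MS08 (highest 430.3 RPM, median 0). On E17 its median was 64.7 RPM in 8 cells of MS11, 4.02 RPM in 18 cells of MS10 and 0.433 RPM in 8 cells of MS61. On E14 the median was 0 in 4 cells of MS10, so the order of MS10 and MS61 was not the same on both days.

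Gastrulating-like cells had no member called against epiblast-like cells of E13 to E17. Limma called 0 of 5, with 0 at an unadjusted p under 0.05, edgeR also called 0, and limma called 6.78% of all genes, 3.36% higher and 3.42% lower. The differences were 0.19 ± 0.61 for EGR1, 1.19 ± 0.62 for FOS, 0.69 ± 0.41 for JUNB, -0.35 ± 0.33 for IER2 and 0.11 ± 0.36 for DUSP1. Within code MS09 on E16 (6 cells of each class) EGR1 differed by -1.22, FOS by -0.64, JUNB by 0.064, IER2 by -1.31 and DUSP1 by 0.89. Within code MS10 on E17 (11 gastrulating-like and 18 epiblast-like cells) the differences were 0.15 for EGR1, -0.095 for FOS, 0.29 for JUNB, -0.81 for IER2 and 0.85 for DUSP1. FOS thus had the opposite sign to the pooled difference within both codes, and EGR1 within MS09. These codes cover only E16 and E17, and with codes pooled the sign of FOS also differed by day. Its means in gastrulating-like and epiblast-like cells were 2.89 and 0.47 on E13, and 3.97 and 0.82 on E14. On E16 they were 2.60 and 3.11, and on E17 1.73 and 2.03. FOS was at 0 to 815 RPM over 6 gastrulating-like cells of E13 (median 4.65) and at 0 to 255 RPM over 14 of E14 (median 17.1). A single cell of the 6 of E13 held 96.7% of their summed FOS and 93.98% of their EGR1, so the top of both ranges is that cell. Of 20 other immediate early genes, 3 rose and 2 fell (KLF6 1.97, FOSL2 1.78, MYC -1.71, BTG1 -1.36). Of 16 ERK targets, 2 rose and 3 fell (DUSP5 3.29, EPHA4 2.80, ETV1 -3.55, SPRY4 -1.72), of 20 pathway genes FGFR3 rose (1.89) and FGF2 fell (-3.20), and of 19 stress genes 1 fell (HSPA8, -0.32).

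ESC cultures had higher mean levels of the 4 tested members than late epiblast-like days, but no member passed the test. CMK6 cells on feeders had EGR1 at 0.415 to 1377 RPM (median 163), FOS at 0 to 631 RPM (median 17.7), IER2 at 58.3 to 386 RPM (median 207) and DUSP1 at 0 to 51.1 RPM (median 21.8). CMK9 cells on feeders had EGR1 at 6.46 to 141 RPM (median 13.8), FOS at 0 to 369 RPM (median 5.59), IER2 at 148 to 479 RPM (median 245) and DUSP1 at 11.62 to 45.2 RPM (median 21.2). Feeder-free CMK6 cells had EGR1 at 0 to 76.8 RPM (median 0.922), FOS at 0.399 to 78.6 RPM (median 2.10), IER2 at 0 to 217 RPM (median 96.1) and DUSP1 at 0 to 68.3 RPM (median 10.6). By median, CMK6 on feeders was highest for EGR1 and FOS and feeder-free CMK6 lowest for all 4, with wide overlap of cells.

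Limma called 0 of 4 members, 3 had an unadjusted p under 0.05, edgeR called 0, and limma called 8.65% of 9880 genes, 7.14% higher and 1.52% lower. The differences between the 3 cultures and the 4 late days were 1.67 ± 0.76 for EGR1 (limma, adjusted p = 0.188), 1.75 ± 0.62 for FOS (0.0996), 1.78 ± 0.53 for IER2 (0.0620) and 1.13 ± 0.42 for DUSP1 (0.112), against a median of 0.28 over all genes. The outcome turned on the feeder-free culture: without it EGR1 differed by 2.69 (limma, adjusted p = 0.0306) and IER2 by 2.47 (0.0173). Without the epiblast-like cells of E16, FOS differed by 2.25 (limma, adjusted p = 0.0369). Within code MS11, the 9 feeder-free ESCs were lower than 8 epiblast-like cells of E17 for EGR1 (-2.20) and FOS (-0.49) and higher for IER2 (0.86) and DUSP1 (1.04). EGR1 in feeder-free cells thus ran opposite to the pooled difference. Of the 3 cultures, 2 come from the same line.

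Among the lists, 6 of 16 other immediate early genes rose in ESC cultures and 0 fell, with KLF10 at 3.71 and IER5 at 3.18, and a list median of 1.03. Of 15 ERK targets, 6 rose and 0 fell, led by PHLDA1 (3.98) and DUSP6 (3.44), with a list median of 1.05. Of 20 pathway genes, 2 rose (ELK1 1.2998, NRAS 0.92) and FGF4 fell (-2.89).

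The same line with and without feeders gives the closest pair of monkey cultures, but each is 1 culture with its own code and dissociation, so values are given without a test. CMK6 cells on feeders exceeded feeder-free cells by at least 1 on the log2 scale for 4 of the 5 members that passed the filter on level, and 0 were lower by that much, where 11.2% of 10419 genes were higher and 8.22% lower. EGR1 averaged 6.48 on feeders and 2.36 feeder-free, a difference of 4.12, IER2 differed by 1.91, FOS by 1.46 and JUN by 1.42. The filter asked for a mean of at least 2 in either culture, and JUN passed it only on feeders (2.22, against 0.80 feeder-free). DUSP1 averaged 3.65 on feeders and 3.67 feeder-free. Among 23 other immediate early genes 11 were higher and 0 lower, and EGR2 (3.48), EGR3 (3.13) and ATF3 (2.88), chosen after their values were seen, led them. EGR2, EGR3 and ATF3 also passed the filter only on feeders, so the counts of higher genes follow in part from the filter. Among 17 ERK targets 2 were higher (EPHA2 1.251, MAFF 1.10) and 4 lower, including DUSP6 (-2.45) and ETV5 (-1.65). EGR1, EGR2 and EGR3 were thus higher on feeders where DUSP6 and ETV5 were lower, and 3 of 19 stress genes were higher and 3 lower, and of 19 pathway genes 0 were higher and 1 lower. The feeder medium held bFGF at 4 ng/ml and LIF at 1000 U/ml. For the feeder-free culture no bFGF or LIF level was taken from the labels, so the media were not compared. Cells carrying at least 4 members at 10 RPM or more numbered 9 of 14 in CMK6 on feeders, 3 of 8 in CMK9 and 1 of 9 in feeder-free CMK6.

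**Figure D4:**
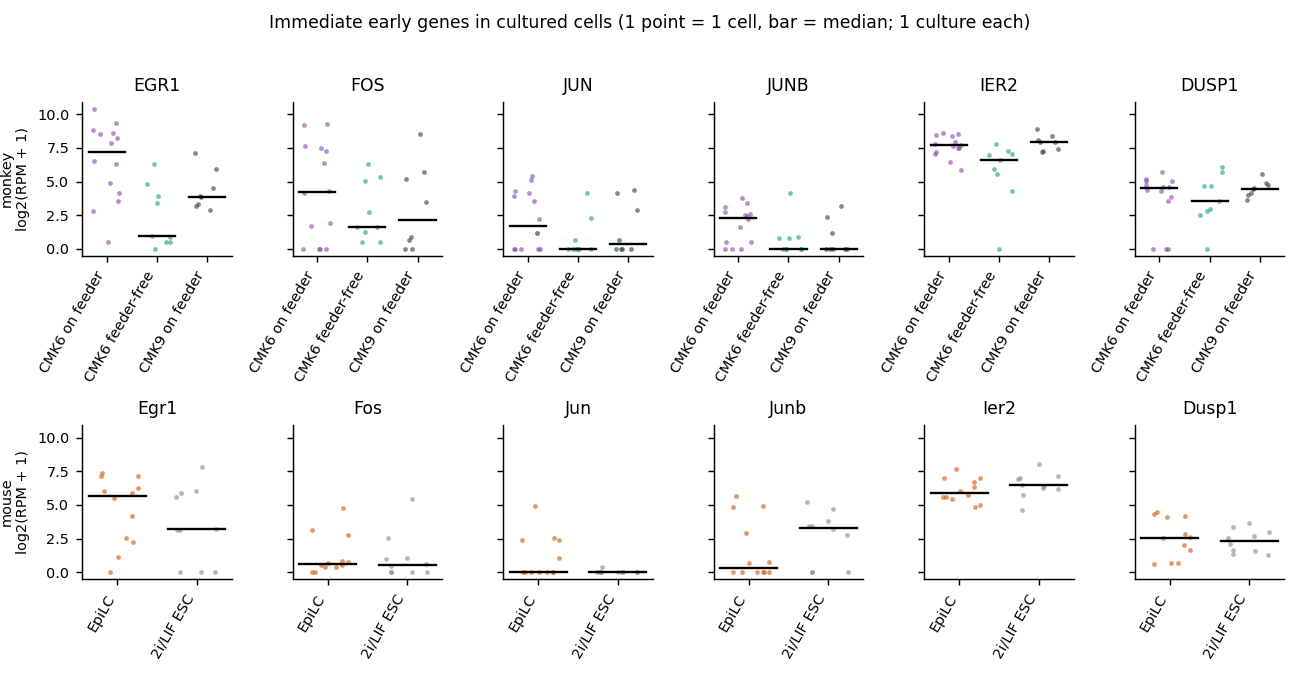
Level of the members as log2(RPM + 1) (vertical) in the monkey ESC cultures and the mouse EpiLC and 2i/LIF ESC cultures; points are cells and bars are medians. EGR1 is spread over the whole axis in CMK6 cells on feeders and mostly low in feeder-free cells, and IER2 is high in all 5 cultures.

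In mouse, EpiLCs and 2i/LIF ESCs came from 1 culture each, both with code MS61. EpiLCs had Egr1 at 0 to 164 RPM (median 51.4), and 2i/LIF ESCs at 0 to 229.9 RPM (median 8.21). Junb was at 0 to 49.5 RPM in EpiLCs (median 0.301) and at 0 to 36.5 RPM in 2i/LIF ESCs (median 8.90). The ranges overlapped throughout, with the order of the medians reversed between the 2 genes. Jun was above 0 in 5 of 12 EpiLCs and in 1 of 10 2i/LIF ESCs. Ier2 was at 27.9 to 203 RPM in EpiLCs (median 58.2) and 24.2 to 257 RPM in 2i/LIF ESCs (median 86.2), Fos had medians of 0.515 RPM in EpiLCs and 0.449 RPM in 2i/LIF ESCs, and Dusp1 of 4.87 RPM in EpiLCs and 4.14 RPM in 2i/LIF ESCs.

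By means, 1 of 4 members was higher in EpiLCs by at least 1 (Egr1, 1.13) and 1 lower (Junb, -1.003), where 18.4% of 9575 genes were higher and 12.8% lower. Junb was only just past that cut. It passed the filter, a mean of at least 2 in either culture, only in 2i/LIF ESCs (2.66, against 1.65 in EpiLCs). Of 16 ERK targets, 8 were higher in EpiLCs and 0 lower, among them Dusp4 (4.12) and Dusp6 (3.48), and of 17 other immediate early genes 7 were higher and 4 lower, among them Myc (3.70), Srf (2.32), Zfp36l1 (-2.72) and Id1 (-1.48). Of 19 pathway genes, 3 were higher (Fgf5, a marker of the epiblast after implantation, by 6.18, Srf, which is also on the immediate early list, and the receptor Fgfr2 by 1.71) and 1 was lower (the adaptor Grb2, -1.01). Of 16 stress genes, 3 were higher, among them Cebpd (1.78) and Bag3 (1.68), and 2 lower (Hspb1 -3.77, Nfkbia -2.47). These genes were chosen after their values were seen, and some, such as Dusp4, Fgf5 and Id1, passed the filter only in the culture where they were higher. EpiLCs had been grown 2 days with activin A at 20 ng/ml and bFGF at 12 ng/ml, and 2i blocks MEK, the kinase just above ERK.

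In mouse embryos, E6.5 and E5.5 cells each have a code of their own, so day and code cannot be told apart, and E6.5 cells had the fewer reads (median 1980770, against 3147038 on E5.5). All 24 cells of E6.5 had Egr1 and Fos above 0, against 12 and 15 of 25 cells of E5.5. Of the E6.5 cells, 9 formed an unnamed group whose leading genes included the immunoglobulin genes Igkc, Ighm and Igl, beside Klf4 and Nanog. This group had 4 of 8 epiblast markers raised. Whether its cells held RNA of immune cells was not tested. In visceral-endoderm-like cells, Egr1 was at 1.99 to 34.8 RPM on E6.5 (5 cells, median 7.48) and at 0 to 0.627 RPM on E5.5 (9 cells, median 0), with no overlap. Junb was at 7.16 to 60.98 RPM in visceral-endoderm-like cells of E5.5 (median 26.6) and at 0 to 9.58 RPM in epiblast-like cells of that day and code (median 0.370), while Dusp1 was at 0 in all 9 visceral-endoderm-like cells. An unnamed group of 10 E6.5 cells led by T and Mesp1, genes of the primitive streak, had Egr1 at 1.77 to 224 RPM (median 26.9) and Jun at 0 to 97.0 RPM (median 20.1). No test was made, since under the naming rule epiblast-like cells were found on E5.5 only.

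Within a class and day, EGR1 in both species and FOS in monkey varied from cell to cell more than nearly all genes ranked. The pooled SD of log2(RPM + 1) over 416 monkey cells in 25 classes by day or cultures was 2.24 for EGR1, rank 17 of 9371 genes, and 2.15 for FOS, rank 48. Genes of like level had a median SD of 1.78 and 1.76. DUSP1 had an SD of 2.02 (rank 382, like genes 1.66) and IER2 of 1.37 (rank 5079, like genes 1.21). JUN (1.46, like genes 1.29) and JUNB (1.34, like genes 1.598) were too low to rank, and JUNB lay below genes of its level. In 71 mouse cells of 7 such groups Egr1 had an SD of 2.14 (rank 75 of 8839, like genes 1.76), Junb of 1.72 (rank 2237, like genes 1.74) and Ier2 of 1.24 (rank 5669, like genes 1.34). Fos (1.59, like genes 1.63), Jun (1.43, like genes 1.5001) and Dusp1 (1.13, like genes 1.55) were too low to rank, and every mouse member but Egr1 lay below genes of its level. EGR1 thus stood near the top in both species and IER2 in the middle. SDs of sparse counts also carry sampling error, which is largest for the shallow cells. Values were centred on class and day or culture but not on title code, so the monkey SDs also hold differences between codes. In epiblast-like cells of E17, for example, mean EGR1 on the log2 scale was 4.56 in MS11, 2.70 in MS10 and 1.06 in MS61. The share of the spread that lies between codes was not worked out.

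Classes differed in how many of their cells held EGR1 and FOS. At 10 RPM or more, 28 of 30 EXM-like cells of E13 and E14 had EGR1, 30 had FOS and 28 had both. Of 61 trophectoderm-like cells of E07 to E09, 3 had EGR1, 56 had FOS and 3 had both, and of 54 hypoblast-like cells 30 had EGR1, 29 had FOS and 21 had both. Most trophectoderm-like cells therefore carried FOS without EGR1. Where nearly every cell has FOS, as in EXM-like and trophectoderm-like cells, the count of both follows from that of EGR1. Of 48 gastrulating-like cells 18 had EGR1, 17 FOS and 12 both, of 31 ESCs 20, 15 and 11, of the epiblast-like cells of E13 to E17 41, 24 and 15, and of 34 epiblast-like cells of E07 to E09 5, 12 and 4. With each cell thinned to 150000 reads, 5 of 34 trophectoderm-like cells of E08 had EGR1 at that level in place of 1, and 31 had FOS as before. The thinning was 1 random draw, and at that depth 10 RPM is only a few reads. The thinned EGR1 count is therefore coarse and is not a count corrected for depth. At least 4 members at 10 RPM were held by 16 of 16 EXM-like cells of E13 and 12 of 14 of E14, against 0 of 24 and 5 of 25 epiblast-like cells of those days.

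**Figure D5:**
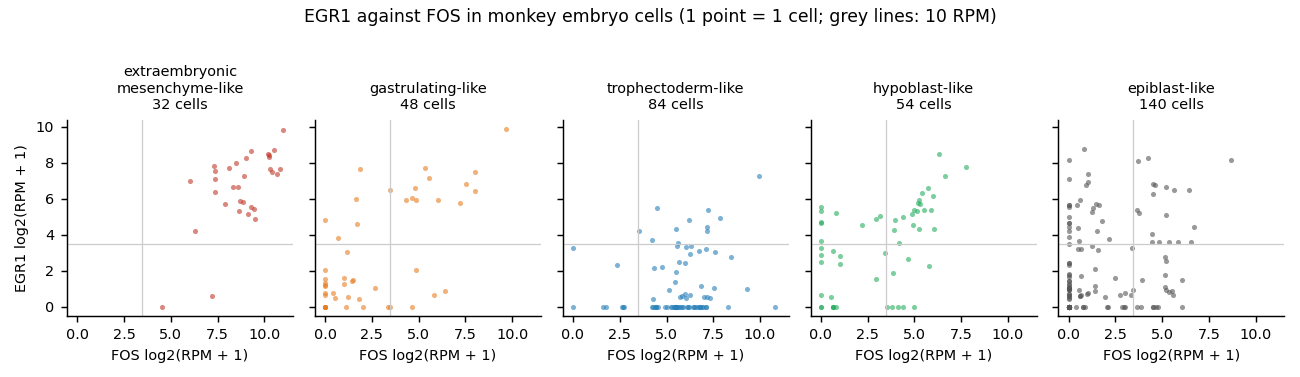
FOS (horizontal) against EGR1 (vertical) in single monkey embryo cells, both as log2(RPM + 1), in panels by class over all days; each point is a cell and grey lines mark 10 RPM. EXM-like cells fill the upper right corner, trophectoderm-like cells lie along the bottom at high FOS, and epiblast-like cells lie mostly at low FOS with a scatter of high EGR1.

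With each class and day or culture centred on its mean, the correlation across 416 monkey cells was 0.389 for EGR1 with FOS and 0.293 for EGR1 with JUNB, and the other 13 pairs lay between 0.0940 and 0.220. In 71 mouse cells it was 0.385 for Egr1 with Fos and 0.438 for Junb with Dusp1. These points share libraries, codes and handling, and are given as a description. The search for like genes covered the 7472 monkey genes with a mean of at least 3 on the log2 scale, which leaves out EGR1, JUN and JUNB as partners. Beside FOS and, outside the search, JUNB, the genes most like EGR1 were TTC31 (0.225) and YIPF3 (0.206), and those most like FOS outside the members were an unnamed gene (0.220) and TBC1D9B (0.203). JUN was most like JUND (0.238), FOSL2 (0.236) and KLF6 (0.221), DUSP1 like KPNA2 (0.270), KLF6 (0.260) and CKS2 (0.249), and IER2 like ARHGDIA (0.268). Within the search JUNB was most like IER2 (0.209), below its value with EGR1. FOSL2, JUND and KLF6 are themselves immediate early or AP-1 genes. Among 7022 mouse genes of that level, Egr1 was most like Trak2 (0.558), Spry4, a feedback inhibitor of ERK signalling (0.461), and Tubb3 (0.446). Other members had top values of like size, such as Ier2 with H2afv (0.584) and Jun with Supt6h (0.518). No chance level was worked out for the highest of so many correlations. Dusp1 was most like LOC100862171 (0.832), and whether the 2 rows share reads could not be read from the table. The mouse annotation places Junos antisense to Jun and other genes across the spans of Junb and Dusp1, and no source used here says whether counting used strand.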

How the data were processed

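SC3-seq profiles of 421 monkey and 71 mouse cells, 1 cell per sample, were used. Values are the RPM (reads scaled to a fixed total per cell) that the authors deposited for each gene. Cutadapt 1.3, TopHat 1.4.1 and Cufflinks 2.2.0 are named in the submitters' processing notes, and per the file headers monkey genes refer to macFas5 and mouse genes to mm10. No source used here gives the authors' filters, the use of strand or any molecular identifier. Of the mouse columns of values, 37 match no sample and were not used. Of 29095 monkey genes, 298 hold no value, and 3341 LOC rows were given a symbol by gene ID. The members and gene lists were chosen with earlier results of these data known.

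The RPM step of 1 read was read off each cell, and at least 99.6% of values under 500 steps were within 0.1 of a whole read. Embryo cells were clustered without the listed genes (scanpy 1.11.5, igraph 0.11.9, 2000 variable genes, Leiden resolution 1, and 1.5 in mouse). A class name needed over 50% of its markers, and at least 3, to be raised by 1 (log2) with a mean of at least 3. No cell was removed, and no doublet caller was run on these singly picked cells. Means of log2(RPM + 1) per class and day or culture, from at least 5 cells, were fitted with limma 3.58.1 (eBayes with an intensity trend, R 4.3.3). Genes needed a unit mean of at least 2 in 3 units. Class comparisons had embryonic day as a block. Adjusted p is Benjamini-Hochberg over all genes tested, two-sided, with a threshold of 0.05. Units of 1 class share days and may share embryos, so a p reflects how days or cultures vary, and not how animals do. The edgeR 4.0.16 quasi-likelihood test on recovered reads summed per unit was an alternative, and the fit was tested on simulated data. Named genes were the members and, from each list, the 2 called genes with the largest rise and the 2 with the largest fall, besides the 3 genes most correlated with each member. Single-culture contrasts have no test, and their genes were named by size after their values were seen. The result of the stress list in ESC cultures against late epiblast-like days is not reported here.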

Additional observations from a re-analysis of the deposited data

Results flagged for a closer look

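Of 30 groups of 4 to 10 cells or units examined, 4 held a value whose gap to its nearest neighbour was large for the range of its group. The cut-off marks about 1 group in 20 by chance where values are normally distributed. Sparse values with many zeros are not, so that rate does not hold for these groups. In feeder-free CMK6 ESCs, JUNB reached 4.14 on the log2(RPM + 1) scale in cell 9, where the group median was 0. In the same culture IER2 was at 0 in cell 1, against a group median of 6.60. In mouse 2i/LIF ESCs, Fos reached 5.45 in cell 9 with a group median of 0.53, and Jun was above 0 only in cell 4, at 0.37. The causes of these values were not tested.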

How the results depend on the processing

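The count of members called changed with the processing as follows. For late against early epiblast-like days it was 1 with no filter on low values, with units of at least 10 cells and with edgeR, against 2 as reported, and 1 to 3 on leaving out a unit. For ESC cultures against late days it was 1 with the log of the mean RPM, against 0, and 0 to 2 on leaving out a unit. For trophectoderm-like against epiblast-like cells it was 1 with units of at least 10 cells and 1 with no block for embryonic day, against 3, and the leave-one-out range was 2 to 3. For hypoblast-like against epiblast-like cells it was 4 with a pseudocount of 0.1, against 2. It was 1 with no filter, with the log of the mean, with edgeR and with no block for day, and 1 to 4 on leaving out a unit. With units of at least 10 cells the epiblast-like side held only E08. EGR1 then fell under the filter and had no test. For EXM-like against epiblast-like cells it was 1 with edgeR, against 4, and lower than reported on leaving out some units. Leaving out either EXM-like day left 1 day on that side. JUNB then fell under the filter and had no test, as also without gastrulating-like E14. Signs turned for IER2 in EXM-like cells without those of E13 (-0.40). In gastrulating-like cells they turned for EGR1 with edgeR (-0.020), without gastrulating-like E14 (-0.46) and without epiblast-like E13 (-0.25), and for DUSP1 with edgeR (-0.020), without gastrulating-like E16 (-0.068) and without epiblast-like E16 (-0.068). The causes were not tested.

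Over all genes, the calls ranged from 788 to 3802 for late against early days (3715 as reported), from 12 to 890 for ESC cultures (855), from 1013 to 3080 for trophectoderm-like (3080), from 948 to 3385 for hypoblast-like (3371), from 1654 to 3452 for EXM-like (3365) and from 21 to 833 for gastrulating-like cells (692). Units of at least 10 cells leave fewer units, and some comparisons could not be fitted there. The planned mouse comparison of visceral-endoderm-like with epiblast-like cells has no result, since epiblast-like cells were found on 1 day only. A fit that counted an unnamed E6.5 group as epiblast-like was set aside because its check on simulated data failed. No paired analysis was possible because the replicate numbers only name cells and match none across groups. The block for embryonic day pairs classes by day, not by number. Sparse reads limit JUN, which was under the filter in all 6 comparisons, and JUNB, which was under it in 2.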
